A study of Mus musculus with 8 samples.

Results

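The class 3 semaphorins and their receptors were followed as 10 genes among the 17097 measured in dermal fibroblasts of mice on a high fat diet. The set holds the ligand genes Sema3a, Sema3b, Sema3c, Sema3d, Sema3e and Sema3f, the neuropilin genes Nrp1 and Nrp2, and the plexin genes Plxna1 and Plxnd1. All 10 had at least 1 probe set that names no other gene, 24 probe sets in all. For each gene the brightest of these over the 7 arrays compared was taken as the main one. The family was chosen by measured values of these arrays, since Sema3b had the third smallest p-value of all genes between the diets. The diet differences of the members are therefore descriptions of the contrast that chose them, and no test of the set rests on them.

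The groups were high fat diet (HFD, 4 arrays) and normal diet (ND, 4 arrays). All mice were female, began the diet at 2 months of age and stayed on it for 6 months, and all were killed on the same day. Strain and genotype are not given in the sources used here. Fibroblasts were sorted from dermis as cells positive for Pdgfra and CD34 and negative for CD45, CD117, CD24, CD31 and EpCam, 10000 cells per sample, and their RNA was amplified over 20 cycles. The labels mark ND 4 as excluded by quality control without giving a reason, so HFD 1 to 4 were compared with ND 1 to 3, and ND 4 is given beside them. The stated n is 4 for each diet. Which mouse gave which array is not labelled, and arrays were treated as separate mice, so the p-values measure the spread between these arrays.

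Class 3 semaphorins are the secreted semaphorins of vertebrates. They were first known as signals that repel growing axons, and they also restrain vessel growth and cell migration. Most of them bind a neuropilin, which has little signalling capacity of its own, and the signal enters the cell through a plexin of the A class. Sema3e is an exception that binds Plxnd1 directly. Neuropilins also bind vascular endothelial growth factors (VEGF), so the same receptor serves both families. In skin, Sema3a is known for limiting the ingrowth of sensory nerve fibres.

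RNA quality and the level of keratinocyte markers were read from each array. RNA quality was read from the control probe sets of Gapdh and Actb, as their mean 3′ minus 5′ log2 difference, which was −0.44 to −0.375 in HFD 1 to 4 and −0.335 to −0.18 in ND 1 to 3, and ND 4 was at −0.37, so the HFD arrays were all below ND 1 to 3. The mean log2 level of 18 measured keratinocyte markers was 6.63 to 7.81 in HFD and 6.64 to 7.03 in ND, with ND 4 at 7.31, so the diets overlapped, with HFD 1 the lowest array. Of the 18 markers 17 had a positive difference, but none passed the threshold as higher in limma. An unadjusted p under 0.05 was found for 4, against 22.1% of all genes. Of these, Perp, Dsp and Krt1 were higher in HFD, by 1.55 (SE 0.57), 1.41 (SE 0.61) and 1.14 log2 (SE 0.47), with overlapping arrays. Jup was lower, at −0.42 (SE 0.10, limma adjusted p = 0.0428). Epcam, the keratinocyte marker used in the sort, was at 5.27 ± 0.11 (SD, n = 4) in HFD and 5.23 ± 0.02 (SD, n = 3) in ND. Cd34 was at 12.10 ± 0.05 (SD, n = 4) in HFD and 12.08 ± 0.02 (SD, n = 3) in ND, and Pdgfra was at 6.27 ± 0.21 (SD, n = 4) in HFD and 5.92 ± 0.12 (SD, n = 3) in ND. Pdgfra was higher in every HFD array than in ND 1 to 3, a difference of 0.34 log2 (SE 0.11, limma adjusted p = 0.103). ND 4 was at 6.15, inside the HFD range. For the negative sort genes Ptprc, Kit, Cd24a and Pecam1 the diets overlapped in the brightest probe set. Pecam1 had a mean of 6.92 over the 7 arrays, against 6.12 for Pdgfra. Signals of different probe sets do not compare RNA amounts, and no detection calls were used, so nothing is read from this order. ND 4, the array set aside, lay closer to the HFD mean than to the ND mean in 752 of the 914 genes past the threshold (82.3%) and in 60.9% of all genes.

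Across the 10 members, Sema3b and Sema3f fell and Nrp1 rose in fibroblasts of HFD mice, and 7 members did not pass the threshold (limma, adjusted p under 0.05 over all genes). Over all genes the share that passed was 5.35%, with 2.62% higher and 2.73% lower in HFD, and nothing is read from the members' count against it because the same contrast chose them. The same 3 members were those whose HFD and ND arrays did not overlap, which held for 17.9% of all genes (9.95% higher and 7.99% lower in HFD). The median difference of the members' main probe sets was −0.18 log2, with 3 positive and 7 negative. That of all genes was 0.02, with 9615 positive and 7482 negative. Nothing is read from the members' signs either. Sema3e, Sema3f and Plxna1, negative here, each have another probe set of the opposite sign. In RNA from a whole sorted population, fewer cells that express a gene and less RNA per cell cannot be told apart.

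**Figure D1:**
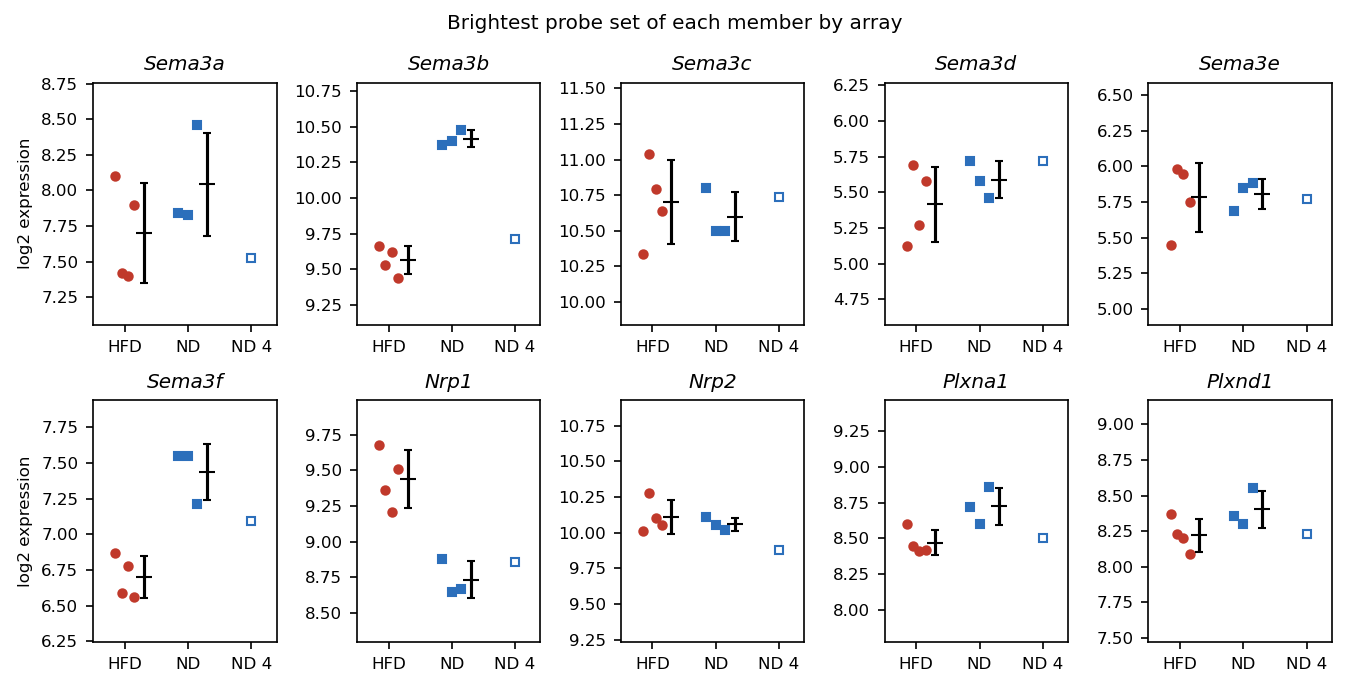
Log2 expression of the brightest probe set of each member (y axis, the same span in every panel) in HFD 1 to 4 (red circles), ND 1 to 3 (blue squares) and the excluded ND 4 (open square), with the mean and SD beside each group. Sema3b and Sema3f were lower and Nrp1 higher in every HFD array than in every ND array compared, while ND 4 stood near the HFD arrays for Sema3b and among the ND arrays for Nrp1.

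Among the ligands, Sema3b encodes a semaphorin that acts through neuropilins and is known in human tumours as a growth-restraining gene. Its main probe set was at 9.66, 9.53, 9.62 and 9.44 log2 in HFD 1 to 4, against 10.37, 10.40 and 10.48 in ND 1 to 3. The diets were separated by a gap several times wider than the spread within either. The difference was −0.85 log2 (SE 0.08), which is 1.81-fold lower in HFD (limma adjusted p = 0.00471). ND 4, which had no part in the choice of Sema3b, was at 9.71, just above the highest HFD array and well below the lowest ND array compared. With ND 4 counted as an ND array the difference was −0.68 log2 (SE 0.15, limma adjusted p = 0.15). In that fit 6 genes of the whole table passed.

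The 2 other probe sets of Sema3b differed much less. The second, annotated to the same transcript accession as the first and nearly as bright, was at 9.66, 9.65, 9.87 and 9.74 in HFD, against 9.93, 9.99 and 9.85 in ND. Here HFD 3 lay inside the ND range, and the difference was −0.19 log2 (SE 0.09). ND 4 was at 9.85, inside the range of both diets. The third was at 7.94 to 8.30 in HFD and 8.07 to 8.35 in ND, a difference of −0.12 log2 (SE 0.11). All 3 thus had the same sign, but the size seen in the main probe set appeared in that one alone, and their mean differed by −0.39 log2 (SE 0.08).

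Sema3f, a ligand that signals mainly through Nrp2, was at 6.87, 6.59, 6.78 and 6.56 log2 in HFD 1 to 4, against 7.55, 7.55 and 7.21 in ND 1 to 3. Every HFD array was below every ND array, and the difference was −0.74 log2 (SE 0.11), 1.67-fold lower in HFD (limma adjusted p = 0.0224). ND 4 was at 7.09, between the 2 groups. The other probe set of Sema3f was dimmer and flat, with 5.64 to 5.72 in HFD and 5.61 to 5.67 in ND, a difference of 0.03 log2 (SE 0.06). Without HFD 3 or HFD 4 the adjusted p of the main probe set was 0.0566 or 0.0663, and with all 8 arrays it was 0.128.

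Sema3b and Sema3f stand close together in the genome. In the GRCm38.p6 gene order 3 protein-coding genes lie between them, and all 3 were measured. The G protein subunit gene Gnai2 differed by −0.08 log2 (SE 0.06), the amino acid transporter gene Slc38a3 by 0.00 (SE 0.07), and Gnat1, which encodes a G protein subunit of rod photoreceptors, by 0.09 (SE 0.09). None of these passed the threshold in limma, though Gnai2 was lower in every HFD array than in every ND array compared. Of the 3 genes beyond each ligand gene, Hyal3 beside Sema3b and Rbm6 and Mon1a beside Sema3f were measured. Hyal3 differed by −0.01 (SE 0.11), Rbm6 by −0.31 (SE 0.10) and Mon1a by −0.37 (SE 0.10). None passed in limma, with adjusted p-values of 0.968, 0.0934 and 0.0672. Rbm6 and Mon1a were also lower in every HFD array than in ND 1 to 3. Over all genes 7.99% were lower in this way, and whether the region differs as a whole was not tested. These neighbours were looked up after the values of the 2 ligands were known.

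The 4 other ligand genes showed no difference past the threshold. Sema3a was the most variable, at 8.10, 7.42, 7.40 and 7.90 log2 in HFD, against 7.84, 7.83 and 8.46 in ND. The HFD and ND arrays overlapped, the difference was −0.34 log2 (SE 0.20), and ND 3 alone set the top of the ND range. The 2 dimmer probe sets of Sema3a had the same sign, at −0.11 and −0.25, and in the dimmest every HFD array was below every ND array compared. ND 4 was in the HFD range of the main probe set, at 7.53.

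Sema3c, known for guiding cardiac neural crest cells, was at 10.34, 11.04, 10.79 and 10.64 log2 in HFD, against 10.80, 10.50 and 10.50 in ND. The groups overlapped, and HFD 1 was the lowest array of all. The difference was 0.10 log2 (SE 0.15), and the other probe set gave 0.42 (SE 0.16), with HFD at 10.28 to 10.98 and ND at 10.02 to 10.49.

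Sema3d and Sema3e gave dim signals. Sema3d was at 5.12 to 5.69 log2 in HFD and 5.46 to 5.72 in ND, a difference of −0.17 (SE 0.13). Its other probe set gave −0.62 (SE 0.17, limma adjusted p = 0.0671 over all probe sets), with HFD at 4.82 to 5.29 and ND at 5.24 to 6.07, so the groups still overlapped. Sema3e, the ligand of Plxnd1, was at 5.45 to 5.98 in HFD and 5.69 to 5.88 in ND, a difference of −0.02 (SE 0.12). Its 3 other probe sets were dimmer still and disagreed in sign, with differences of −0.27, 0.18 and −0.13.

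**Figure D2:**
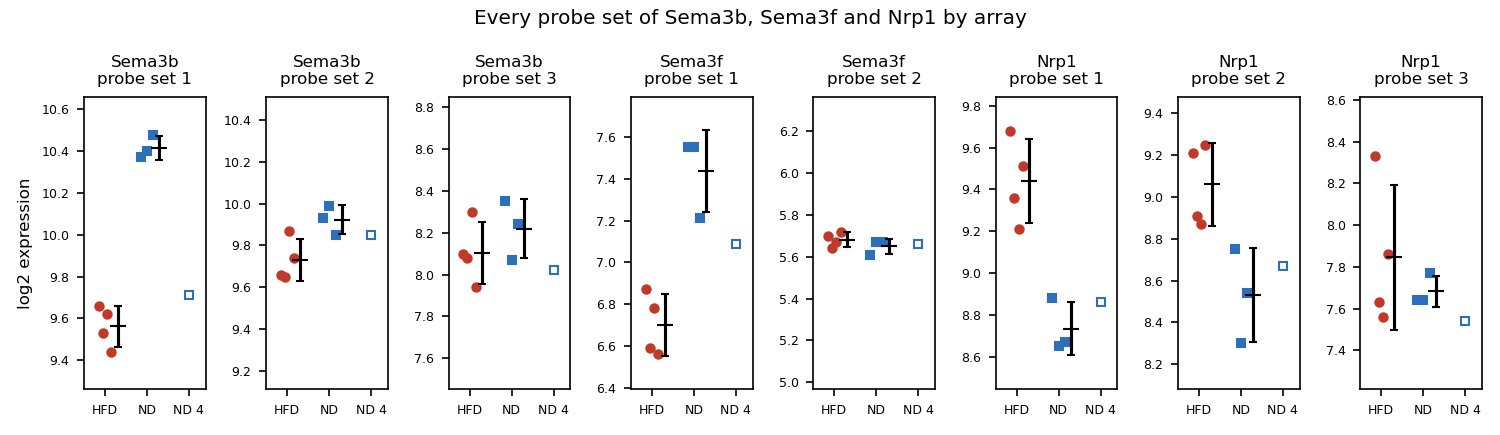
Log2 expression in every probe set of Sema3b, Sema3f and Nrp1, numbered from the brightest (y axes of equal span), with HFD arrays as red circles, ND 1 to 3 as blue squares, ND 4 as an open square, and the mean and SD beside each group. The separation of the diets seen in the first probe set was absent from the dimmer probe sets of Sema3b and Sema3f, whereas the second probe set of Nrp1 also separated them.

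Among the receptors, Nrp1 encodes the neuropilin that binds Sema3a and also the VEGF form that drives vessel growth. It was at 9.68, 9.36, 9.21 and 9.51 log2 in HFD 1 to 4, against 8.88, 8.65 and 8.67 in ND 1 to 3. All HFD arrays were above all ND arrays, and the difference was 0.71 log2 (SE 0.12), 1.63-fold higher in HFD (limma adjusted p = 0.0224). ND 4 was at 8.86, inside the range of the other ND arrays. In that array the main probe set of Nrp1 thus stood apart from that of Sema3b. The second probe set of Sema3b and the third of Nrp1 placed ND 4 otherwise. With all 8 arrays the difference was 0.68 log2 (SE 0.11, limma adjusted p = 0.113). This was the same fit as for Sema3b and Sema3f, where 6 genes of the whole table passed.

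The second probe set of Nrp1 showed the same separation. It was at 9.21, 8.91, 8.87 and 9.25 log2 in HFD, against 8.75, 8.30 and 8.54 in ND, a difference of 0.53 (SE 0.14, limma adjusted p = 0.0526 over all probe sets). ND 4 was at 8.67, again inside the ND range. The third and dimmest was at 7.56 to 8.33 in HFD and 7.64 to 7.77 in ND, a difference of 0.16 (SE 0.17). Only HFD 1 and HFD 4 were above the ND arrays there, and ND 4, at 7.54, was below both groups. Without HFD 3, HFD 4 or ND 3 the adjusted p of the main probe set was 0.0518, 0.0701 or 0.088. The mean of the Nrp1 probe sets differed by 0.47 log2 (SE 0.13) and did not pass the threshold (limma adjusted p = 0.0826).

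Nrp2, the other neuropilin and the main receptor of Sema3f, was at 10.01, 10.28, 10.10 and 10.05 log2 in HFD, against 10.11, 10.05 and 10.02 in ND. The groups overlapped, and the difference was 0.05 log2 (SE 0.09). Its second probe set, nearly as bright, was at 10.02 to 10.13 in HFD and 9.66 to 9.89 in ND without overlap, a difference of 0.26 (SE 0.09), but with an adjusted p = 0.103 in limma over all probe sets.

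Of the plexins, Plxna1, a signalling partner of both neuropilins, was at 8.60, 8.45, 8.41 and 8.42 log2 in HFD, against 8.72, 8.60 and 8.86 in ND. The highest HFD array equalled the lowest ND array, and the difference was −0.26 (SE 0.10). Its second probe set went the other way, at 0.15 (SE 0.11), with HFD at 8.01 to 8.41 and ND at 7.95 to 8.18. Plxnd1, which in mice shapes the growing vessels, has a single probe set, at 8.09 to 8.37 in HFD and 8.30 to 8.55 in ND, a difference of −0.18 (SE 0.10). The main probe sets of both plexins had their highest value in ND 3, whereas ND 3 was the lowest array in the second probe set of Plxna1.

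**Figure D3:**
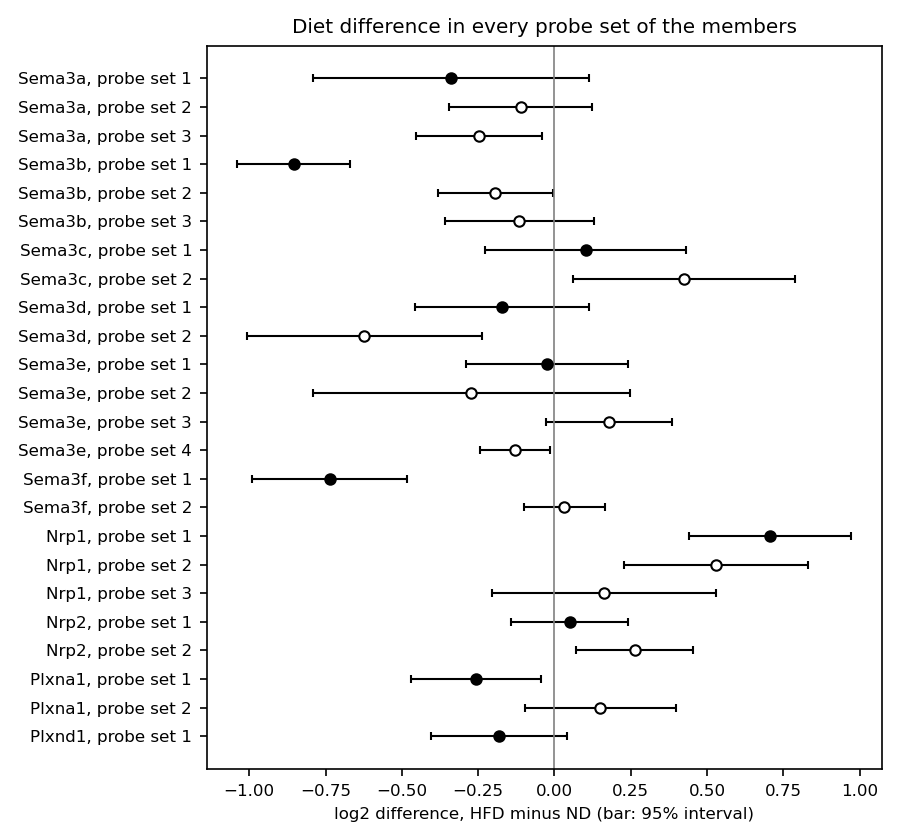
Log2 difference between the diets, HFD minus ND (x axis), for all 24 probe sets of the members, with bars for the 95% interval of the limma fit and filled circles for the brightest probe set of each gene. Sema3e, Sema3f and Plxna1 have probe sets on both sides of 0, while those of the 6 other members with more than 1 probe set lie on 1 side.

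Of the 24 probe sets, 7 (29.2%) did not overlap between HFD and ND, against 18.1% of all probe sets that name 1 gene. They came from 6 of the 10 members, with 2 from Nrp1, and include the Sema3b probe set that chose the family. Nothing is read from this share, since the same contrast chose the members and probe sets of 1 gene are not independent. Of the 9 members with more than 1 probe set, 6 had the same sign in all of them. The exceptions were Sema3e, Sema3f and Plxna1.

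For the 3 members that passed, the fit was repeated with each of the array properties as a covariate. With the keratinocyte level, the differences were −0.81 (SE 0.10) for Sema3b, −0.65 (SE 0.13) for Sema3f and 0.80 (SE 0.14) for Nrp1, with adjusted p-values of 0.0273, 0.085 and 0.0724 in limma. With the 3′ minus 5′ difference as a covariate they were −0.71 (SE 0.14), −0.90 (SE 0.21) and 0.63 (SE 0.22), and no gene of the whole table passed, with 604 genes at an unadjusted p under 0.05. The part of RNA quality or of keratinocyte RNA in these differences was not tested further.

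**Figure D4:**
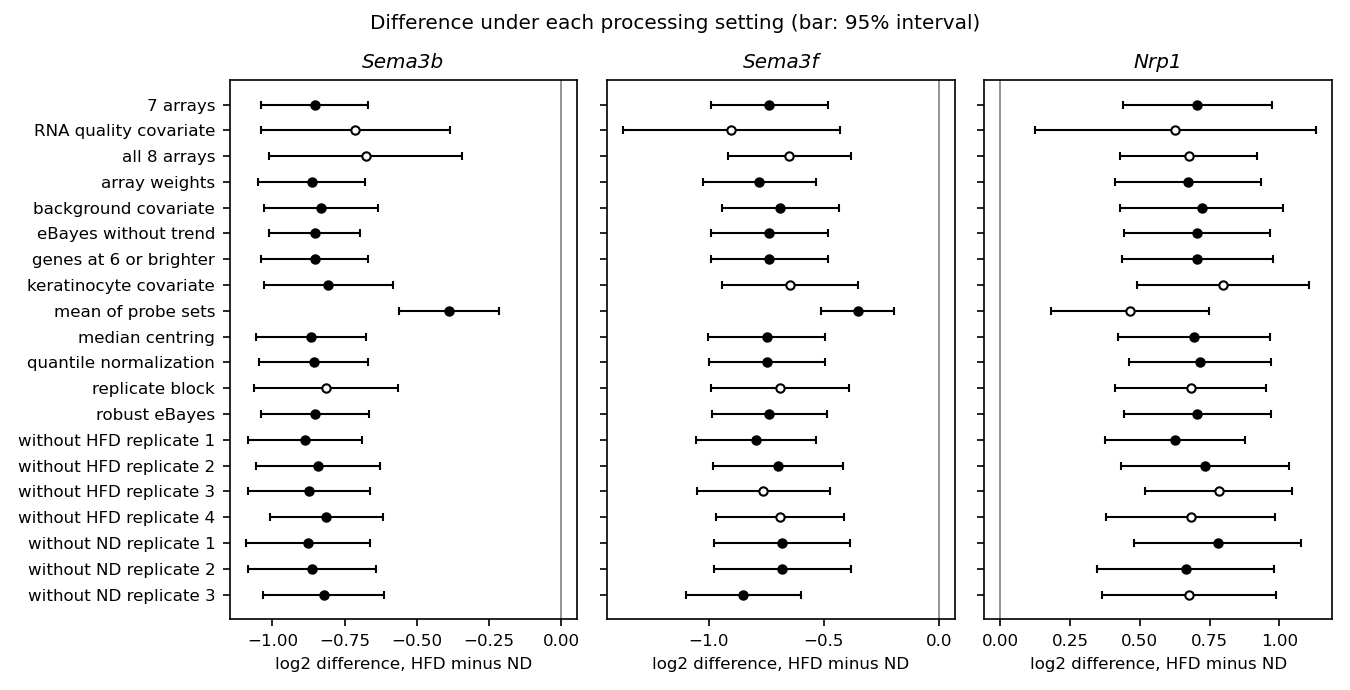
Log2 difference, HFD minus ND (x axes), for Sema3b, Sema3f and Nrp1 in the comparison of 7 arrays (top row) and under each other setting, with bars for the 95% interval and filled circles where the adjusted p was under 0.05. The sign was the same in every row for each of the 3 genes, whereas the filled circles were lost for all 3 with the RNA quality covariate, all 8 arrays or the replicate block.

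The other genes of the pathway were followed in 5 lists, of which 61 genes were measured. Of these, 1 rose, 1 fell and 59 did not pass, against 5.35% of all genes past the threshold. At an unadjusted p under 0.05 there were 12 of 61, against 22.1% of all genes. The median difference of the 61 was 0.02 log2, as for all genes.

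Of 14 other semaphorins, Sema4c, a membrane-bound ligand of class B plexins, rose. It was at 7.83, 8.04, 8.17 and 8.29 log2 in HFD, against 7.32, 7.52 and 7.32 in ND, a difference of 0.70 (SE 0.12, limma adjusted p = 0.0224). All HFD arrays were above ND 1 to 3, but ND 4, at 8.25, was inside the HFD range. The adjusted p of Sema4c was 0.257 with all 8 arrays and 0.0657, 0.07 or 0.0893 without HFD 3, HFD 4 or ND 3. Sema6d, next by p in that list, differed by −0.25 (SE 0.12), and Sema3g, the class 3 gene outside the set of 10, by 0.16 (SE 0.11). None of 12 other plexins and coreceptors passed in limma, with 2 at an unadjusted p under 0.05. These were the neural adhesion molecule genes Nrcam (−0.32, SE 0.13) and L1cam (−0.44, SE 0.19), whose products associate with neuropilins.

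None of 8 VEGF ligands and receptors passed in limma, with 1 at an unadjusted p under 0.05. That gene, Vegfa, encodes the growth factor that shares Nrp1, and it was at 10.29 to 10.46 log2 in HFD and 10.12 to 10.29 in ND, a difference of 0.18 (SE 0.08, adjusted p = 0.223). Its dimmer probe set did not overlap between the diets, with 7.51 to 7.74 in HFD, 7.14 to 7.35 in ND and a difference of 0.36 (SE 0.09, adjusted p = 0.0544 over all probe sets). Vegfb, another ligand of the family, differed by −0.36 (SE 0.16).

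Of 23 measured intracellular transducers, the kinase gene Gsk3b fell and 22 did not pass in limma. An unadjusted p under 0.05 was found for 8, against 22.1% of all genes. The diets did not overlap for 6 that were higher and 3 that were lower in HFD, against 9.95% and 7.99% of all genes. Whether this list differs from all genes was not tested. Gsk3b, whose product phosphorylates the collapsin response mediators, was at 10.08 to 10.20 log2 in HFD and 10.50 to 10.76 in ND, a difference of −0.44 (SE 0.09, limma adjusted p = 0.0278). Its 3 dimmer probe sets differed by −0.33, −0.05 and −0.05, and ND 4 was at 10.07, below every HFD array. The adjusted p of Gsk3b was 0.178 with the mean of its probe sets, 0.256 with all 8 arrays and 0.0547, 0.0747, 0.0873 or 0.1 without HFD 2, HFD 3, HFD 4 or ND 3. Mical1, an oxidase that takes actin filaments apart when a semaphorin signal arrives, differed by 0.45 (SE 0.12, adjusted p = 0.0574), but its other probe set by −0.08 (SE 0.10).

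None of the 4 convertases that can cleave semaphorin precursors passed in limma, with 0 at an unadjusted p under 0.05. Pcsk6 differed by −0.34 (SE 0.20) and Pcsk5 by −0.23 (SE 0.15).

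The guidance families most like the semaphorins were set beside them. Of 9 Slit and Robo genes, 13 netrin genes and 19 ephrin and Eph receptor genes, 41 in all, none passed in limma, with 5 at an unadjusted p under 0.05, against 5.35% and 22.1% of all genes. Robo1, the receptor of Slit proteins, came nearest, at 10.33 to 10.62 log2 in HFD and 10.17 to 10.21 in ND, a difference of 0.33 (SE 0.09, adjusted p = 0.055). Slit1 differed by −0.30 (SE 0.09). The ephrin ligand gene Efnb1 was at 7.82 to 8.04 in HFD and 8.12 to 8.47 in ND, a difference of −0.40 (SE 0.10, adjusted p = 0.0557), and Efnb3 differed by −0.17 (SE 0.08). Of the netrin genes, the receptor genes Unc5d and Dcc differed by −0.14 (SE 0.04) and 0.24 (SE 0.10). Whether the members differ as a group from these families was not tested.

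**Figure D5:**
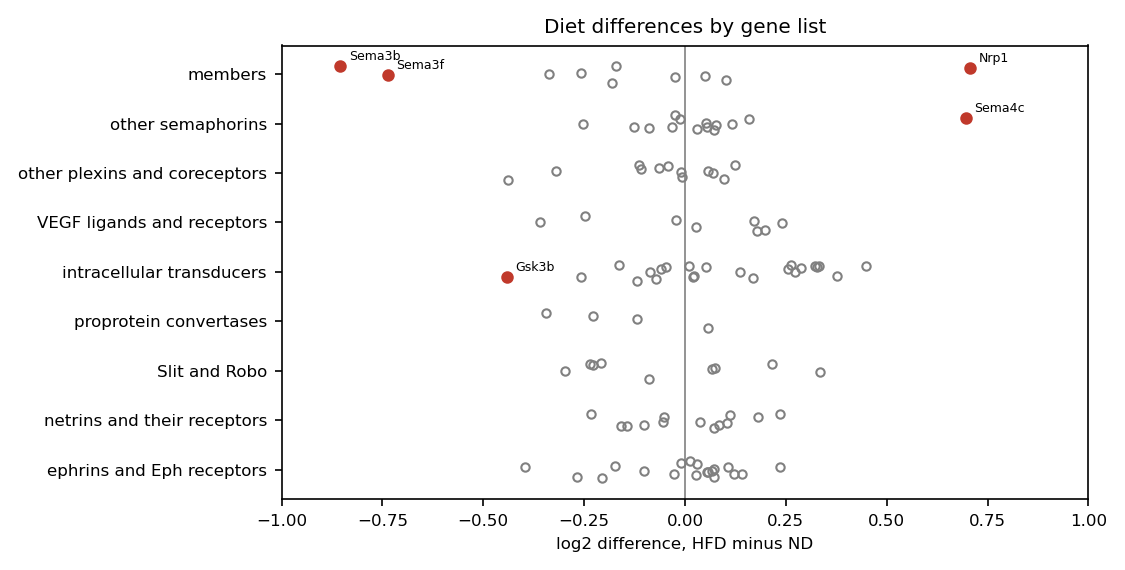
Log2 difference, HFD minus ND (x axis), of each measured gene of the members, the 5 other pathway lists and the 3 other guidance families (rows), with filled red circles and names for genes past the threshold and open circles for the rest. The 3 members past the threshold and Sema4c lie beyond the other genes of their lists.

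The excluded array ND 4 had no part in the choice of the members. On a scale with 0 at the mean of ND 1 to 3 and 1 at the mean of the HFD arrays, it was at 0.83 for Sema3b, 0.47 for Sema3f and 0.18 for Nrp1, against a median of 0.78 over the genes past the threshold. Over the main probe sets of all 10 members, ND 4 was in the HFD range alone for 3 (Sema3a, Plxna1 and Plxnd1) and in the ND range alone for 2 (Nrp1 and Sema3d). It was in both ranges for Sema3c and Sema3e, and in neither for Sema3b, Sema3f and Nrp2. The main probe sets of the members thus did not all stand on 1 side in this array. The second probe set of Sema3d placed ND 4, at 5.19, in the HFD range alone, and the third of Nrp1 placed it in neither range.

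The pattern of Sema3b over the 7 arrays was followed most closely by Clmn, Slc43a1, Olfml2b, Scfd2 and Tpp1, with Pearson correlations of 0.983 to 0.988 and diet differences of −0.83 to −0.57. The most opposed were Smarcc2, B3gnt4, Vdac1, Atad5 and Lrrc45, at −0.995 to −0.989. Nrp1 was followed most closely by Jak2, Alkbh1, Acadl, Capg and Kctd17, at 0.986 to 0.996, and the most opposed were Rtn2, Cenpp, Grasp, Bend6 and Marveld1, at −0.995 to −0.972. These are descriptions over 7 arrays that share their processing. Sema3b and Nrp1 both separate the diets, and that difference enters the correlations.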

How the data were processed

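Each of the 8 arrays is 1 sample. The authors deposited log2 expression values of 45141 probe sets, made with RMA and affy per the submitters' processing notes. Versions and settings are not given in the sources used here. A given quartile differs by at most 0.04 log2 between arrays, so a change in total RNA per cell cannot be seen. Gene names come from GEO's platform annotation, with symbols updated by Entrez identifier for 28689 of 28898 probe sets that name 1 gene. The GRCm38.p6 table served only for names and gene order.

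HFD 1 to 4 were compared with ND 1 to 3 in limma 3.58.1 under R 4.3.3 (lmFit and eBayes with a trend, 10.3 total degrees of freedom) on the brightest probe set of 17097 genes, with Benjamini-Hochberg adjustment over all genes at 0.05. Values of dimmer probe sets come from the same fit on all 28898 probe sets. Every adjusted p-value is from one of these limma fits or from the same fit under a named setting. No detection calls were used, and the number of arrays limits the precision. The lists and members were chosen with earlier results of these data known. Of each list the genes past the threshold are named, or the 2 with the smallest p where fewer than 2 pass. Other members of lists, and neighbours, were named after their values were seen. For Sema3b, and for the brightest other member whose diets do not overlap, the 5 most and 5 least correlated genes are named. Settings tried are given in the closing section. Arrays of the same specimen number were not treated as pairs in the main fit, and they were no more alike than others. Marker lists of 10 cell types were measured, and the genes past the threshold were Lum among fibroblast genes and Jup among keratinocyte genes, both lower in HFD. Each of the other 8 lists had 0 such genes in limma and at most 1 at an unadjusted p under 0.05. Figures were drawn with matplotlib 3.10.9.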

Additional observations from a re-analysis of the deposited data

Results flagged for a closer look

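Among the brightest probe sets of the members and the genes named from the lists, 1 value stood apart from the other HFD arrays, that of Efnb3 in HFD 2, at 6.23 log2, while HFD 1, 3 and 4 were at 6.06 to 6.08. The gap to its nearest neighbour took up 0.88 of the range of the 4 HFD arrays. It was 1 of 26 genes looked at in this way, and chance gives about 5% of such groups. The 3 ND arrays and the dimmer probe sets were not looked at in this way.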

How the results depend on the processing

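Sema3b kept its sign in all settings and its call in all but these. The difference was −0.71 with the 3′ minus 5′ covariate (adjusted p = 0.999), −0.68 with all 8 arrays, −0.81 with the replicate block, and −0.19 with the second brightest probe set, a setting chosen after seeing the data. Leaving out 1 array gave −0.89 to −0.81. The number of members past the threshold was 3 in the 7 arrays. It was 0 with the 3′ minus 5′ covariate, all 8 arrays or the replicate block (with 4, 3 and 3 at an unadjusted p under 0.05 in limma). It was 1 with the keratinocyte covariate, 2 with the mean of probe sets, and 1 to 3 with 1 array left out. For all genes the count was 914, and it was 0, 6 and 1 in the same first settings (604, 2795 and 2517 at an unadjusted p under 0.05), 28 with the keratinocyte covariate, 324 with array background as a covariate (added after seeing the data), 400 with the mean of probe sets, 1947 at an adjusted p under 0.10, and 6 to 1072 with 1 array left out. It fell to 210, 6 and 9 without HFD 2, HFD 3 and HFD 4, and to 485 and 11 without ND 2 and ND 3. The count of pathway genes was 2. It was 0 with the 3′ minus 5′ covariate, all 8 arrays, the replicate block or the keratinocyte covariate (3, 10, 11 and 11 at an unadjusted p under 0.05), and 1 with the mean of probe sets. Among genes at 6 log2 or brighter it was 6 of 47, where 1282 of all 10817 genes passed. It was 7 at an adjusted p under 0.10, 4 with every probe set alone (1224 for all genes), and 0 to 4 with 1 array left out. For the other guidance genes the count was 0 in the 7 arrays. It was 2 with array weights, without the trend, among genes at 6 or brighter (29 measured) or with every probe set alone. In these 4 settings the count for all genes was 1061, 934, 1282 and 1224. For the guidance genes it was 1 with the mean of probe sets, 4 at 0.10, and 0 to 2 with 1 array left out. Beyond the construction of each setting, the cause of these changes was not tested. Deviations from the diet means of same-numbered arrays correlated at −0.18, −0.29 and −0.05 over genes. Those of HFD and ND arrays with different numbers correlated at −0.17 to 0.26. Same-numbered arrays were thus no more alike than others, but so few pairs do not show whether they were handled together.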
